A study of Mus musculus with 6 samples.

Results

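The insulin-like growth factor (IGF) axis was described here through the open chromatin at 10 mouse genes, the ligands Igf1 and Igf2, the receptors Igf1r and Igf2r, and the binding protein genes Igfbp2 to Igfbp7. Regions were the deposited ATAC-seq peaks within each gene or 20 kb on either side (mm10), merged across libraries where they overlapped by 1 base. This gave 69 regions among the 85174 of the series, and each of the 10 genes had at least 1. ATAC-seq finds open chromatin because the transposase Tn5 cuts it. It was run on primary vascular smooth muscle cells of the mouse, which contract the vessel wall, bought from a supplier and kept in culture. The control group held 3 libraries given a negative control, and the knockdown group held 3 libraries given siRNA against Arid3a, numbered 1 to 3 and each made with a different siRNA. The product of Arid3a binds AT-rich DNA. Cells were kept for 24 h after transfection, and each assay used 50000 cells and 30 min with Tn5. Strain, age and sex of the donor animals are not stated in the labels, nor is it stated which libraries, if any, received the angiotensin II that the labels describe. Separate cultures within a group are not stated, so p-values cover only the spread among these 6 libraries, and that spread may be technical.

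The IGF ligands are small secreted proteins, and Igf1 acts on smooth muscle cells as a growth and survival signal. Igf1r is the tyrosine kinase receptor that carries this signal, while Igf2r binds Igf2 and takes it into the cell for breakdown. The binding proteins hold most of the ligand outside cells and either keep it from the receptor or deliver it. Igf2 and Igf2r are imprinted in the mouse, so each is transcribed mainly from the copy of 1 parent. An open region marks accessible DNA and is no measure of transcription.

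Libraries differed in depth. The lists held 33248 to 52091 peaks. Relative to the highest estimate, the depth estimated from the peaks was 48.9% in control 2 and 58.3% in knockdown 3, and between 96.7% and 100% in the other 4. A region missing from either shallow list may lie under its detection limit. Of the smooth muscle markers, 4 of 8 (Acta2, Tagln, Smtn and Lmod1) had a peak within 1000 bases of an annotated gene end in 6 of 6 libraries, and Myh11 and Des, which encode smooth muscle myosin and desmin, had one in 0 of 6. Across 21887 protein-coding genes, 36.5% had such a peak in 6 of 6 libraries. In lists of 6 markers each, the number with such a peak in every library was 0 for epithelial and endothelial cells and 1 each for leukocytes (Cd68) and fibroblasts (Col1a1).

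The promoters of 6 start sites are printed because the peaks met them in different ways, from a peak in every library to none. Each line gives the 250 bases before a start site, 5′ to 3′ on the strand of the gene, from RefSeq on GRCm38.p6, the assembly of mm10. Capitals mark every match to 8 motifs, searched on both strands.
Igfbp7 (chr5:77408046-77408295, minus strand): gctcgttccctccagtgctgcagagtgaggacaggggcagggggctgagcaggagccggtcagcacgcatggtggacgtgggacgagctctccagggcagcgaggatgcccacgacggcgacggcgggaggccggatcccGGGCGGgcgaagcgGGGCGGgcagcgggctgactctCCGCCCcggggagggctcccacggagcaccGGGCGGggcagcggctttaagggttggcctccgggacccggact
Igf2r (chr17:12769707-12769956, minus strand): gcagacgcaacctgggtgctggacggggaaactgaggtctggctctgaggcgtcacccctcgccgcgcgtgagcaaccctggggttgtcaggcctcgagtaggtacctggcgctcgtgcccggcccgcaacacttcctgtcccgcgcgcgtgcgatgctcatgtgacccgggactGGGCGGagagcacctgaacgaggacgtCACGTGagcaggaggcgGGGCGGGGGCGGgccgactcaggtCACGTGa
Igf1 (chr10:87860861-87861110, plus strand): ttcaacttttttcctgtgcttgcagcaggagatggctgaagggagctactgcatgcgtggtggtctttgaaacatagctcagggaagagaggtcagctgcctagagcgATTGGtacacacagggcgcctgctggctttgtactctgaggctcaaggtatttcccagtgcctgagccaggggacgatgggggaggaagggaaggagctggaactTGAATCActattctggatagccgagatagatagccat
Igf1r (chr7:67952007-67952256, plus strand): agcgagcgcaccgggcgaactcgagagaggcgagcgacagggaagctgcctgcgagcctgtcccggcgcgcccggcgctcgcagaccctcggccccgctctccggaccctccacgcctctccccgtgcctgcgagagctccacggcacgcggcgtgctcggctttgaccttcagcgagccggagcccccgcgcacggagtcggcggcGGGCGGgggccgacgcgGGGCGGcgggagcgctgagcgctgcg
Igfbp6 (chr15:102143936-102144185, plus strand): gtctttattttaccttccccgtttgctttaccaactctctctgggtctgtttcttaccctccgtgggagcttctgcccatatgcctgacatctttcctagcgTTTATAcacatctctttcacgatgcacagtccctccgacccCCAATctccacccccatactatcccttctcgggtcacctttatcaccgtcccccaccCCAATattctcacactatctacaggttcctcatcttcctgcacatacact
Igf2, 1 of its 4 start sites (chr7:142661272-142661521, minus strand): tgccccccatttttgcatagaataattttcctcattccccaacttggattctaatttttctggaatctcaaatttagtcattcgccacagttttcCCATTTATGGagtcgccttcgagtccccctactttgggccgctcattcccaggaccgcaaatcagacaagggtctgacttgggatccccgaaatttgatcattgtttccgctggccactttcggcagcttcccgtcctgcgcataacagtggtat
The AP-1 site was searched as TGANTCA, the cyclic AMP response element (CRE) as TGACGTCA, the GC box as GGGCGG, and the site of NF-Y as CCAAT. The core of the ARID3A motif was searched as ATTAAA, the E-box as CACGTG, the TATA box as TATAAA, and the CArG box, the site of serum response factor, by its name alone. In Igf2r the last 2 GC boxes touch and share no base. A match is a description of the letters and does not show binding.

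The Igfbp7 promoter carried a peak over part of these bases in 6 of 6 libraries. Peaks covered 79, 77 and 120 of its 250 bases in control 1 to 3 and 177, 116 and 72 in knockdown 1 to 3, so the groups overlapped. It held 4 GC boxes, a motif found in 32.7% of 32851 promoters of the same length, and 74.0% of its bases were G or C against a median of 52.4%. The Igf2r promoter, with 3 GC boxes and 2 E-boxes (E-box in 6.02% of promoters), was reached by a peak in 3 of 6 libraries, control 3, knockdown 1 and knockdown 3. The Igf1 promoter, with 1 AP-1 match (6.75% of promoters) and 1 CCAAT box (33.8%), was reached in control 3 and knockdown 2. The Igf1r promoter, the most GC-rich of the 6 printed at 77.6% and with 2 GC boxes, had a peak over its 250 bases in 0 of 6 libraries. The same held for the Igfbp6 promoter, which had 49.6% G or C, 2 CCAAT boxes and 1 TATA box (12.4% of promoters). The Igf2 promoter shown, the one with a CArG box (1.47% of promoters), was also reached in 0 of 6 libraries, as were the other 3 promoters of Igf2. The ARID3A core, found in 12.7% of promoters, and the CRE, found in 1.55%, matched in none of the 14 promoters that the 10 genes have in the RefSeq table.

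**Figure D1:**
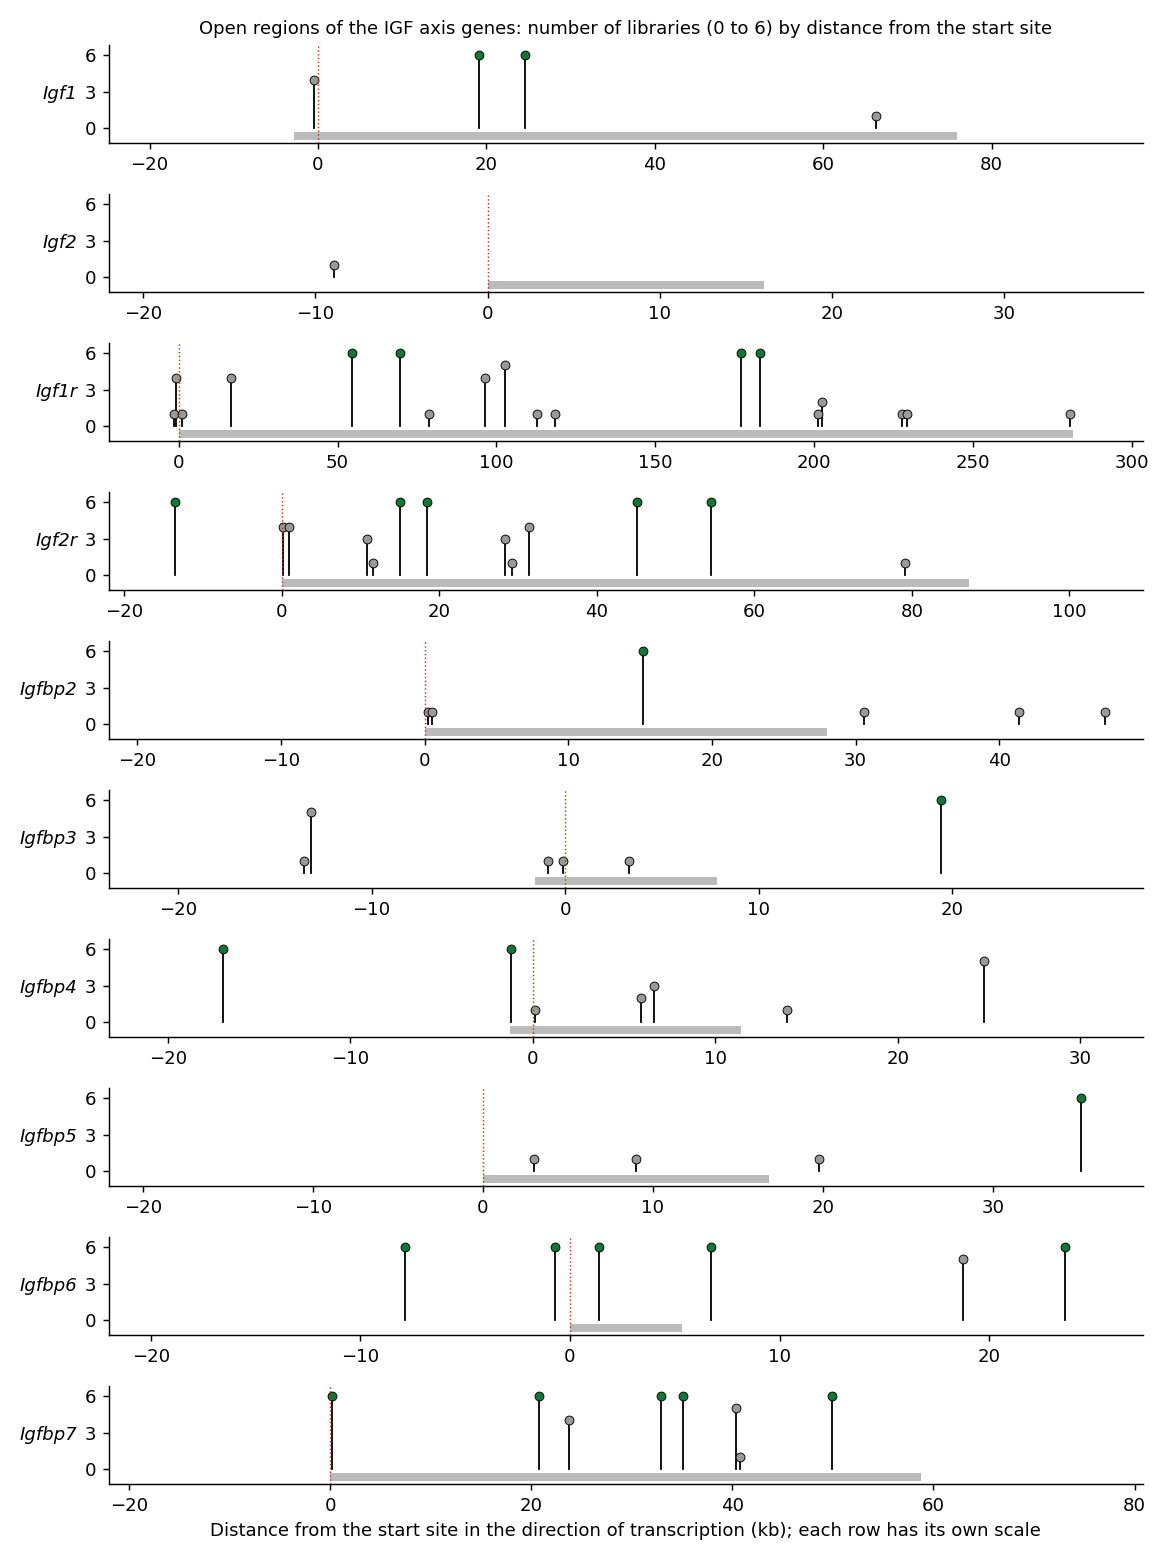
Each row is 1 gene, each stem 1 region at its distance in kb from the start site (dotted line), and the height is the number of libraries (0 to 6) with a peak there; green heads mark 6 of 6 and grey bars the gene. Regions present in 6 of 6 libraries lie mostly inside genes, as 18 of 25 did, and away from start sites, while Igf2 has a single region in 1 library.

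Open regions of the IGF genes were mostly inside the genes and away from the start sites. Of the 69 regions, 53 overlapped a member gene, 9 lay upstream of one and 7 downstream. The windows hold each gene body by rule, and the Igf1r gene alone spans 281.4 kb, so counts by position depend on the windows. These counts were not set beside those of all genes. There were 25 regions present in 6 of 6 libraries, or 36.2%, against 24.4% of all regions. Another 26 regions, or 37.7%, were present in 1 library, against 33.5% of all regions. Of the 25 regions in every library, 18 lay inside a member gene, 19 lay more than 10 kb from its start site and 2 lay within 1000 bases of it. Of the other 7, 4 overlapped a gene outside the list, so assignment to the IGF gene rests on distance alone. The median gene of the list had 6 regions in its window and 8.46 per 100 kb, against 4 regions and 5.48 per 100 kb for all protein-coding genes. For regions in every library these medians were 1.89 and 1.46 per 100 kb. No test was made of these differences. Regions in every library had a median fold enrichment of 7.95 here and 8.56 genome-wide, and those in 1 library 4.05 and 4.06. Fold enrichment is the authors' value for the height of a peak at its summit, relative to the background around it in that library. It is used below, as is their −log10 q (the strength of the peak against that background), to describe peaks and not to measure change.

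Start sites were open in every library for 2 of the 10 genes, Igfbp6 and Igfbp7, counting any peak within 1000 bases. Among 17492 protein-coding genes with a RefSeq promoter entry, 38.5% had such a peak in 6 of 6 libraries and 41.1% in 0 of 6. Igf2r had one in 5 libraries, Igf1 and Igf1r in 4, Igfbp2 and Igfbp3 in 2, Igfbp4 in 1, and Igf2 and Igfbp5 in 0. Igfbp4 (chromosome 11, 99040005 to 99052655) depended on the annotation. Its lower annotated end, which lies upstream of the listed start site, carried a region in 6 of 6 libraries, at 99039868 to 99040223. Igf1 and Igfbp3 likewise have their listed start site inside the annotated gene. A peak within 1000 bases of either annotated end was listed in 0 libraries for Igf1 and in 1 for Igfbp3.

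Of the ligand genes, Igf1 was open inside the gene in every library while Igf2 had 1 weak region in 1 library. In the Igf1 gene (chromosome 10, 87858265 to 87937047), 2 of 4 regions were present in 6 of 6 libraries. The stronger, 19.2 kb downstream of the start site at 87879935 to 87880596, had fold enrichments of 11.6, 11.7 and 12.4 in control 1 to 3 and of 9.80, 13.2 and 9.82 in knockdown 1 to 3. Control values lay between the lowest and the highest knockdown value. Tags at its summit, the mapped reads or fragments that the caller counted there, numbered 23, 22 and 26 in control 1 to 3 and 20, 31 and 18 in knockdown 1 to 3. The other, 24.6 kb downstream at 87885341 to 87886058, had fold enrichments of 10.8, 8.06 and 9.66 in the control and 9.77, 8.67 and 9.05 in the knockdown libraries. Control values spanned all 3 knockdown values. The region at the start site itself, 87860064 to 87861112, was present in control 1 and 3 and knockdown 1 and 2, with fold enrichments of 6.68, 5.85, 5.37 and 4.75. It was missing from the 2 shallow libraries, control 2 and knockdown 3, and also overlapped the antisense gene Igf1os. Igf2 (chromosome 7, 142650768 to 142666816) had no region inside the gene. Its only region, 8.9 kb upstream of the most upstream start site at 142675603 to 142675812, was listed in control 1 alone, on 3 tags and with a −log10 q of 2.20.

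Igf1r, the receptor of Igf1, is a gene of 281.4 kb (chromosome 7, 67952257 to 68233668) and held the most regions, 18, of which 4 were present in 6 of 6 libraries and 9 in 1. The strongest lay 69.7 kb downstream of the start site, at 68021567 to 68022389, with fold enrichments of 15.0, 9.72 and 14.5 in the control and 13.0, 14.6 and 15.6 in the knockdown libraries. Control 2 was the lowest, and the other 5 libraries lay close together. Tags at its summit numbered 41, 17 and 41 in control 1 to 3 and 34, 42 and 35 in knockdown 1 to 3. By −log10 q the peak stood within the strongest 9.63% of the list in every library, and its 6 summits fell within 55 bases. At the start site, a region at 67951083 to 67951724 was weak, with fold enrichments of 4.71 and 3.84 in control 1 and 2 and 3.83 and 4.37 in knockdown 2 and 3, and it was not listed in control 3 or knockdown 1. A separate region just upstream of it, at 67950793 to 67951043, was listed in knockdown 1 alone, with a fold enrichment of 4.31.

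In 2 intragenic regions of Igf1r every knockdown library had a higher fold enrichment than every control library. At 68006579 to 68006942, 54.5 kb downstream of the start site, the values were 7.07, 5.04 and 7.20 in the control and 9.90, 8.02 and 8.79 in the knockdown libraries, on 8, 5 and 8 against 12, 10 and 10 tags. At 68129087 to 68129477, 177.0 kb downstream, they were 6.07, 5.00 and 4.67 in the control and 8.62, 6.39 and 7.14 in the knockdown libraries, on 9, 6 and 7 against 14, 11 and 10 tags. The opposite order was seen once, in Igfbp7 at 77357591 to 77358722 on chromosome 5, 49.9 kb downstream of its start site, with 6.62, 5.80 and 5.57 in the control and 5.00, 3.83 and 4.51 in the knockdown libraries. That region is broad, and its summits lay up to 793 bases apart. In the other 22 of the 25 regions present in every library the groups overlapped. Genome-wide, 4.00% of 20742 such regions had all knockdown values above all control values and 1.71% had them below, against 2 and 1 of 25 here. These 3 regions were singled out after their values were seen. The values are scaled within each library and were not adjusted for depth, and no test was made. The median peak had a fold enrichment of 5.78 in control 2 and 5.96 in knockdown 3, the shallow libraries. In the other libraries it was 6.76 to 6.95.

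**Figure D2:**
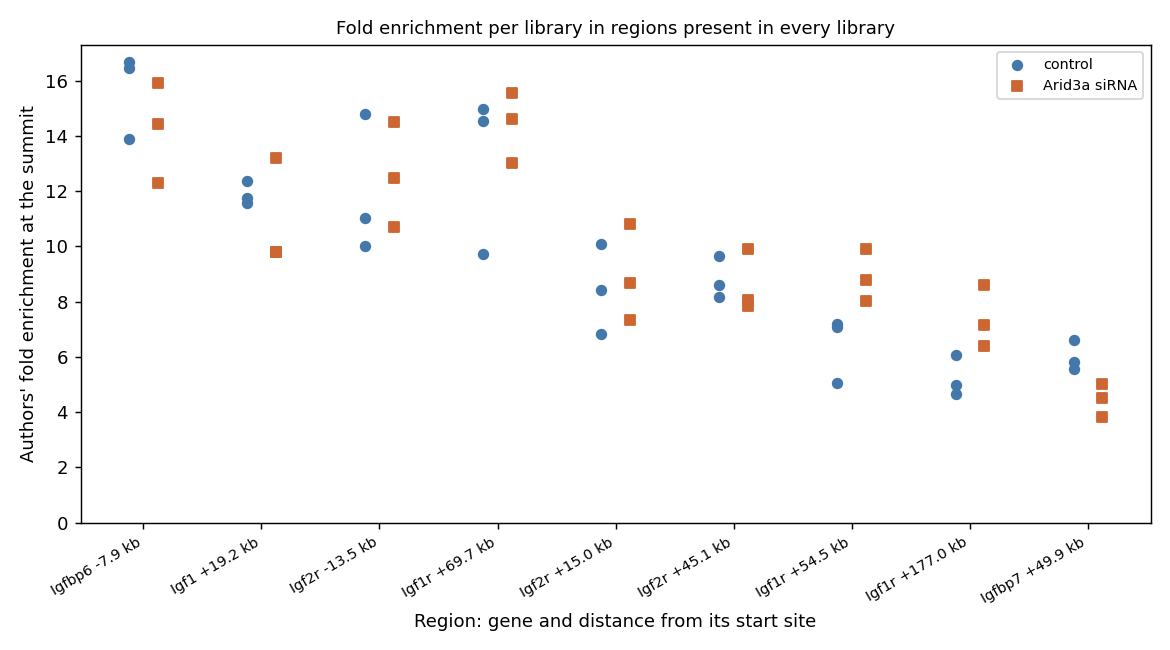
Authors' fold enrichment at the summit (linear axis from 0) in 9 regions present in 6 of 6 libraries, named by gene and distance in kb from the start site; circles are the 3 control libraries and squares the 3 knockdown libraries. The groups overlap in the first 6 regions, those with the highest smallest −log10 q, and do not in the last 3, Igf1r +54.5 kb and +177.0 kb, where knockdown values are higher, and Igfbp7 +49.9 kb, where they are lower.

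In the Igf2r window (chromosome 17, gene at 12682406 to 12769706) 5 of 13 regions were present in 6 of 6 libraries. The first lay 13.5 kb upstream of the start site at 12782946 to 12783537, inside Airn, the antisense RNA gene that takes part in the imprinting of Igf2r. Its fold enrichments were 14.8, 10.0 and 11.0 in the control and 10.7, 12.5 and 14.5 in the knockdown libraries, in overlapping ranges. The region 15.0 kb downstream, at 12754396 to 12754967, had 8.43, 10.1 and 6.84 in the control and 10.8, 8.67 and 7.33 in the knockdown libraries. It also overlapped Airn and stood on 25 to 46 tags, and the groups overlapped. The region 45.1 kb downstream, at 12724073 to 12725166, had 8.17, 8.59 and 9.65 against 8.06, 7.83 and 9.91, again in overlapping ranges. Within 1000 bases of the start site of Airn, a region at 12741200 to 12741589 was listed in control 1, control 3 and knockdown 1, with fold enrichments of 5.98, 4.62 and 8.57. Another at 12740348 to 12740574 was listed only in knockdown 3. Control 2 and knockdown 2 had neither.

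Within 1000 bases of the start site of Igf2r lay 2 neighbouring regions, 0.1 and 0.8 kb downstream, both of which also overlapped Airn. The first, at 12769260 to 12769894, covered the start site and was listed in control 1 and 3 and knockdown 1 and 3 with fold enrichments of 7.25, 4.03, 5.77 and 4.72. The second, at 12768572 to 12769169, was listed in all 3 control libraries, at 6.61, 3.93 and 5.10, and in knockdown 3 at 5.40. Knockdown 2, among the deepest libraries, had neither.

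Among the binding proteins, Igfbp6 and Igfbp7 had the most regions open in every library, 5 of 6 and 5 of 8. Igfbp6 encodes a binding protein that prefers Igf2 to Igf1. In its window (chromosome 15, gene at 102144186 to 102149512) the region with the highest smallest −log10 q of the whole list, 23.8, lay 7.9 kb upstream, at 102135880 to 102136744, inside the neighbouring gene Spryd3 and within 1000 bases of a start site of that gene. Its fold enrichments were 16.7, 13.9 and 16.4 in the control and 14.4, 15.9 and 12.3 in the knockdown libraries. The shallow library of each group was the lowest, and the groups overlapped. By −log10 q it stood within the strongest 2.61% of each list. The region 6.7 kb downstream of the start site, at 102150531 to 102151307, overlapped Soat2, which encodes a cholesterol-esterifying enzyme. Its fold enrichments were 9.61, 8.01 and 10.2 in the control and 8.93, 10.9 and 10.7 in the knockdown libraries. The region 23.6 kb downstream, at 102167459 to 102168130, had 12.9, 7.64 and 11.3 against 12.9, 14.6 and 9.39, in overlapping ranges.

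Nearest to Igfbp6, 2 regions flanked the start site without covering the printed promoter. The one 0.7 kb upstream, at 102143272 to 102143714, had fold enrichments of 8.55, 6.59 and 6.82 in the control and 7.68, 8.75 and 7.83 in the knockdown libraries, on 16 to 33 tags. The one 1.4 kb downstream, at 102145271 to 102145877, had 6.94, 6.81 and 4.60 against 5.48, 6.81 and 6.89. Both were present in 6 of 6 libraries, with overlapping groups.

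Igfbp7 encodes a secreted protein that binds IGFs weakly. All 8 of its regions lay inside the gene (chromosome 5, 77349240 to 77408045). The promoter region, at 77407388 to 77408222, had fold enrichments of 8.92, 9.34 and 9.05 in the control and 7.80, 11.0 and 6.64 in the knockdown libraries. The 3 control values lay close together between the knockdown values. The region 35.1 kb downstream, at 77372700 to 77373191, had 6.28, 6.33 and 7.72 against 7.71, 7.75 and 6.26. The region 32.9 kb downstream, at 77374980 to 77375336, had 9.05, 4.95 and 6.68 against 9.64, 6.78 and 4.15, lowest in the shallow library of each group. A region 40.4 kb downstream, at 77367386 to 77367985, was missing only from control 2, and had 12.5 and 7.39 in control 1 and 3 and 10.2, 10.3 and 7.48 in the knockdown libraries.

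Igfbp4, whose product is cut by the protease Pappa, had 2 of 7 regions in every library. The one at its lower annotated end, 1.2 kb upstream of the listed start site, had fold enrichments of 9.94, 6.66 and 7.84 in the control and 8.05, 8.08 and 5.70 in the knockdown libraries, with summits within 46 bases. The other, 17.0 kb upstream at 99023932 to 99024558, overlapped Top2a, the gene of a DNA topoisomerase of dividing cells, and lay within 1000 bases of its start site. It had 8.23, 6.06 and 6.85 against 8.61, 8.44 and 7.42. The groups overlapped in both. Inside the gene, a region at 99046949 to 99047383 was listed in knockdown 1 and 2 and in no control library, and one at the start site, 99041178 to 99041574, in knockdown 2 alone.

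Igfbp2, Igfbp3 and Igfbp5 had 1 region each in 6 of 6 libraries. Igfbp2 (chromosome 1, 72824480 to 72852474) and Igfbp5 (72858065 to 72874865) are neighbours on opposite strands, and the same region in 6 of 6 libraries served both windows. It lay inside Igfbp2 at 72839239 to 72840089, with fold enrichments of 8.19, 5.89 and 8.26 in the control and 7.25, 6.95 and 5.77 in the knockdown libraries. The groups overlapped, and the shallow library of each group was the lowest. The other 3 regions in the Igfbp5 window, 2 of them inside the gene, also fell in the Igfbp2 window and were each listed in 1 library. For Igfbp3 (chromosome 11, 7206086 to 7215498), the gene of the main IGF carrier in blood, the region in every library lay outside the gene, 19.4 kb downstream of the start site at 7194267 to 7194773. It had 6.17, 5.32 and 7.52 in the control and 5.91, 5.10 and 4.72 in the knockdown libraries, in overlapping ranges. This region is nearer to Igfbp1, the next gene, than to Igfbp3. The 3 regions inside the Igfbp3 gene were each listed in 1 library, among them the strongest of the 26 regions found in 1 library, at 7210459 to 7210772 with a −log10 q of 11.5 and 17 tags in control 3.

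**Figure D3:**
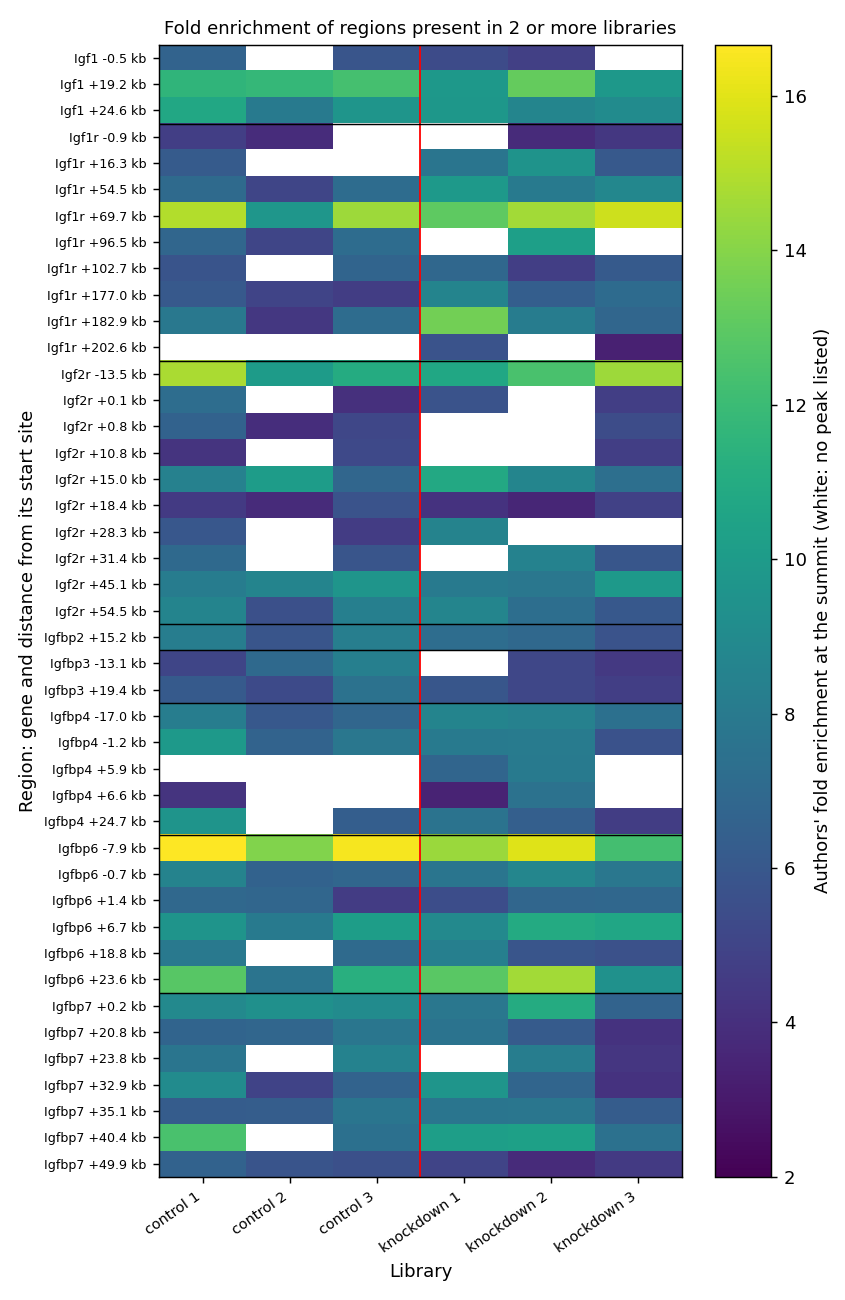
Rows are the regions present in 2 or more libraries, named by gene and distance in kb from the start site, columns the 6 libraries, and colour the authors' fold enrichment at the summit; white means that no peak was listed. Igfbp6 −7.9 kb and Igf1r +69.7 kb are the brightest rows, and white cells are most frequent in control 2, the shallowest library.

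Between control and knockdown, no IGF region was present in all libraries of one group and none of the other. Among the 69, the control-only count was 0 and the knockdown-only count was 0. Of all regions, 0.277% and 0.432% were of these kinds, so a list of this size would hold less than 1 of either at those shares. Without knockdown 3 there was 1 of each, Igf2r near its start site (12768737 to 12769169) on the control side and Igfbp4 at 99046949 to 99047383 on the knockdown side, where 0.492% and 1.96% of all regions were called. Without knockdown 2 there was again 1 of each, both in Igf1r, at 68048658 to 68048909 on the control side and at 68154454 to 68155161 on the knockdown side, against 0.820% and 1.04% of all regions. Without control 1 there was 1 on the knockdown side, in Igf1r at 67968448 to 67968742, and 0 on the control side, against 1.32% and 0.758% of all regions. Without control 2, control 3 or knockdown 1 the counts stayed at 0 and 0. In the 4 deepest libraries, where fewer have to agree, there were 2 control-side regions, both in Igf2r, and 1 knockdown-side region, that of Igfbp4. Genome-wide 2.70% and 2.44% of regions were called there.

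In 3 regions a peak was listed in all libraries of one group and in 1 of the other. In Igf1r, the region at 68048658 to 68048917, 96.5 kb downstream, was listed in control 1 to 3 with fold enrichments of 6.84, 5.04 and 7.21, and in knockdown 2 with 10.3. The highest of these values was thus in the knockdown library. The second was the Igf2r region 0.8 kb from the start site, above. In the opposite direction, the Igf1r region at 67968448 to 67968742, 16.3 kb downstream, was listed in the 3 knockdown libraries at 7.70, 9.51 and 6.07 and in control 1 at 6.24. Of all regions, 1.09% were present in 3 control and 1 knockdown libraries and 1.72% the other way round, against 2 and 1 of 69 here. Another 2 regions were listed in 2 knockdown and 0 control libraries, that of Igfbp4 at 99046949 to 99047383 and that of Igf1r at 68154454 to 68155161, the latter with fold enrichments of 5.75 in knockdown 1 and 3.37 in knockdown 3. Of all regions 2.56% were of this kind, and 2.35% were in 2 control and 0 knockdown libraries, against 0 of 69 here. Of the 5 IGF regions present in 5 libraries, 4 were missing from control 2, the shallowest library, and 1 from knockdown 1. Of all regions in 5 libraries, 57.3% were missing from control 2.

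The number of IGF regions per library did not separate the groups. Control 1 to 3 held 47, 30 and 44 of the 69 regions and knockdown 1 to 3 held 40, 42 and 43. The knockdown values lay within the control range, and control 2 was the lowest. Means were 40.3 ± 9.07 and 41.7 ± 1.53 (SD, n = 3), a difference of 1.33 regions (exact two-sided permutation p = 1, adjusted over 2 tests p = 1). Per 1000 regions of the library, the values were 0.932, 0.913 and 0.856 in the control and 0.808, 0.834 and 1.05 in the knockdown libraries, or 0.900 ± 0.0393 and 0.897 ± 0.132 (SD, n = 3; exact two-sided permutation p = 1, adjusted p = 1). The highest value was that of knockdown 3, a shallow library. With 3 libraries against 3, the smallest possible p is 0.1. Without control 2, the knockdown libraries held 4.17 fewer regions on average (a difference of −4.17, exact permutation p = 0.2). With 2 control libraries left against 3, 0.2 is the smallest possible p.

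**Figure D4:**
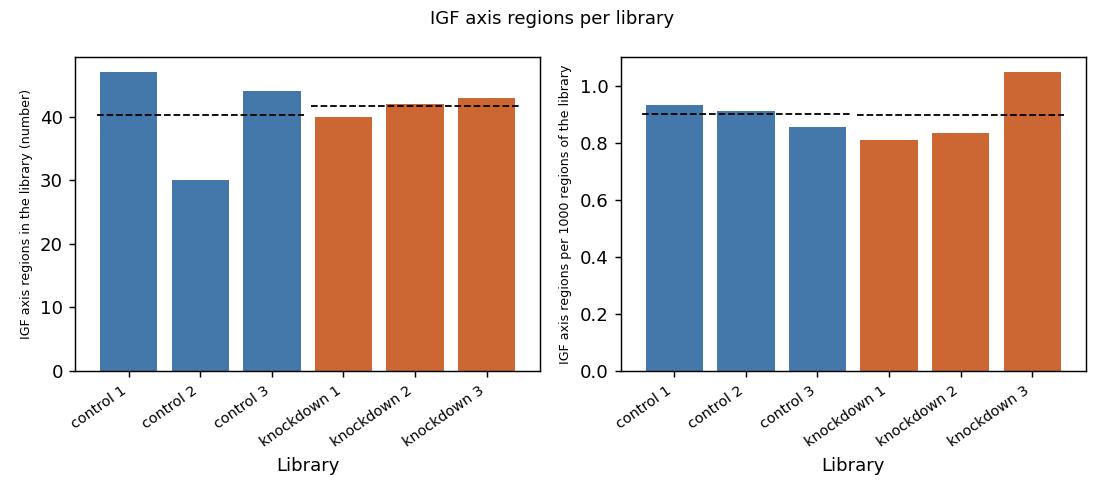
Bars give the number of IGF axis regions in each library (left) and the same per 1000 regions of that library (right), axes from 0, with dashed lines at the group means. Control 2 has 30 regions against 40 to 47 in the other libraries, and knockdown 3 has the highest scaled value at 1.05.

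Other genes of the pathway were described by the same windows, in a list of 28 that included Igfbp1, the insulin receptor gene Insr, the adaptors Irs1 and Irs2, the kinase genes Pik3ca and Akt1, and the binding protein proteases Pappa, Pappa2 and Htra1. Their windows held 231 regions, 4 of them shared with the 10 genes, and 59 (25.5%) were present in 6 of 6 libraries against 24.4% of all. A region within 1000 bases of a gene end was present in 6 of 6 libraries for 10 of these genes. The best supported was at Shc1, an adaptor of receptor tyrosine kinases, at 89430067 to 89430829 on chromosome 3, with a smallest −log10 q of 15.3 and fold enrichments of 12.2, 10.7 and 16.5 in the control and 12.5, 15.3 and 10.5 in the knockdown libraries. At Insr the region at 3278995 to 3279697 lay on chromosome 8, with 8.81, 9.89 and 11.3 against 9.55, 9.74 and 10.3. At Pik3ca, which encodes a catalytic subunit of PI 3-kinase, the region had 11.5, 10.9 and 10.7 against 7.61, 8.96 and 10.1. All control values thus lay above all knockdown values, an order seen genome-wide in 1.71% of regions present in every library. This order was singled out after the values were seen, and no test was made. How many of the 59 pathway regions present in every library show it is not given. At Irs1, a main adaptor of Igf1r, the region had 7.87, 5.89 and 8.91 against 9.47, 5.95 and 6.51, with overlapping groups. Foxo3, Pik3r1, Ghr, Igf2bp2 and Akt1 were also among the 10. Of the 231 regions, 0 were control-only and 1 was knockdown-only, in Pappa2 at 158765880 to 158766145 on chromosome 1, with fold enrichments of 8.33, 7.69 and 7.53. Of all regions, 0.277% were control-only and 0.432% knockdown-only, and 1 of 231 is close to the latter share. Igfbp1, Igfals, Igfbpl1, Pappa, Igf2bp3 and H19 had no peak at either gene end in any of the 6 lists. These are 6 of 28 genes, and 41.4% of protein-coding genes had none.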

How the data were processed

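ATAC-seq peaks of 6 libraries were analysed, 1 deposited list per library. Per the submitters' processing notes, Bowtie2, Picard and MACS2 were used with build mm10. Versions, settings, duplicate handling and any Tn5 shift were not given in the sources used here. Kept duplicates would raise tag numbers, and a missing shift would move summits by a few bases. The authors deposited for each peak a fold enrichment (a ratio within the library), −log10 p and −log10 q values, and a score that is −log10 q times 10 as a whole number. These were used to describe peaks only.

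Peaks were merged with Python 3.11.15, pandas 2.3.3 and NumPy 2.4.6. Gene positions and promoters came from RefSeq tables of GRCm38.p6, which held all 10 genes. These tables do not separate exons from introns. Tags at the summit were the whole number, up to 600, that with the fold gives the deposited −log10 p (Poisson) within 0.001, which 99.996% or more of the peaks of a library met. They counted 8 to 11 in the median peak. Relative depth is the usual lowest background per length of the shortest peak. The exact permutation tests took all 20 relabellings. Merging was tested on simulated lists. The members, lists and rules were chosen with earlier results of these data known. Named were, for each gene, up to 3 regions in 6 of 6 libraries by the smallest −log10 q, regions at a gene end in 5 or more libraries, group-specific regions and those in 3 libraries of one group and 1 of the other. The other regions named, such as those at the start sites of Igf1, Igf1r, Igf2r and Airn, were chosen after their values were seen. The gene-end windows of the plan became start-site windows for the 10 genes, since the promoter table gives strand. Alternatives were a −log10 q of at least 5, lists of equal length, 50% coverage, other flanks, leaving out libraries, and a replicate block.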

Additional observations from a re-analysis of the deposited data

How the results depend on the processing

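The difference in regions per library, knockdown minus control, was 1.33 and turned negative where peaks needed a −log10 q of at least 5 (−1), with at least 50% of a region covered (−0.667) and without the shortest list of each group (−5). Leaving out 1 library gave −4.17 to 4.67. Per 1000 regions the difference was −0.00382, and 0.0220 with lists of equal length. Leaving out 1 library gave −0.0795 to 0.0402, positive without control 1, knockdown 1 or knockdown 2. Exact permutation p-values over these alternatives ran from 0.2 to 1. With 1 library left out, 0.2 is the smallest possible. Without the shortest list of each group both differences had an exact permutation p of 0.333, the smallest possible there. Control-only regions numbered 1 with a −log10 q of 5 or more (the Igfbp7 region 49.9 kb downstream of its start site), where 0.139% of all regions were control-only. That region had a peak in every library, and its knockdown peaks, with −log10 q of 4.92, 3.00 and 3.58, fell under the cut. There were 2 control-only regions without the shortest list of each group, and 0 to 1 with 1 library left out. Knockdown-only regions numbered 1 without the shortest lists and 0 to 1 with 1 library left out. Regions in every library ran from 17 to 32 over the alternatives, within 1.5 times the 25 reported. The replicate block, a sign-flip test of the 3 same-numbered pairs, gave the same differences of 1.33 and −0.00382 with exact p = 1 each, where 0.25 is the smallest possible. Same-numbered libraries correlated in their deviations over all regions at 0.0240, −0.0521 and −0.0479. The highest correlation of any control with any knockdown library was 0.0912, between control 2 and knockdown 3, the shallow library of each group. These values cannot show whether same-numbered libraries were handled together. Depth limits which weak regions a list can hold, since the median peak of an IGF region in 1 library stood on 5 tags.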
